A study of Mus musculus with 6 samples.

Results

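The mRNAs carried by tagged ribosomes in the dentate gyrus of Klf9 +/+ mice were described here across genes, from 3 of the 6 samples of the series. The 3 samples were chosen by their genotype label and nothing was taken from their values. The mice carried a tamoxifen-inducible Cre under the control of Gli1 (GliCreERT2 in the labels), an intact Klf9 gene and the RiboTag allele, in which Cre recombination places an HA tag on the ribosomal protein RPL22 so that tagged ribosomes and their mRNAs can be pulled down with an anti-HA antibody. Mice aged 2 to 3 months received 3 injections of tamoxifen (TAM) at 250 mg/kg, 12 hr apart, and their dentate gyri were taken 4 days after the last one. Each sample pooled 6 dentate gyri from 3 mice, so the spread given here is between pools and not between animals. The driver is active in the stem cells of the dentate gyrus and also in astrocytes, and cells born from the first divisions of tagged cells carry the tag as well. No unpurified tissue was analysed here, so levels could not be expressed as an enrichment over the whole dentate gyrus.

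The adult dentate gyrus keeps radial glia-like stem cells (RGLs), which rest in the subgranular zone and can either renew, become astrocytes or enter neurogenesis through dividing intermediate progenitors and neuroblasts that mature into granule neurons. RGLs and astrocytes share much of their gene expression, including glutamate transporters, lipid carriers and connexins. Few genes therefore tell them apart in a pooled sample, and fewer cells of a type cannot be told apart from less RNA per cell in any value below.

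Counts on genes numbered 27594529 to 58864965 per sample, so a level of 1 CPM (counts per 1000000 counts on genes) was 27.6 to 58.9 counts. Of 37620 genes, 13463 were above 1 CPM in all 3 samples, and 12895 of these were protein-coding. Levels are given as TPM (transcripts per 1000000), in which counts are divided by the length of a gene's merged exons and scaled to that sum in every sample. They are listed in the order of replicates 1, 2 and 3. The library names place replicates 1 and 2 in one series and replicate 3 in another, so the second series and that single library cannot be told apart. Of the 13463 genes, 68.2% had their highest TPM in replicate 3, 17.3% in replicate 2 and 14.5% in replicate 1. The median over these genes was 16.2, 18.7 and 24.7 TPM, so that a small excess of TPM in replicate 3 is the usual case and not particular to a gene. Between replicates 1 and 2, 97.0% of the 12895 protein-coding genes agreed within 2-fold, and 70.4% did so over all 3 samples. The share within 2-fold over all 3 samples was 49.4% for genes with a mean under 5 TPM, 79.3% from 20 to 100 TPM, 90.5% from 100 to 1000 TPM and 85.6% for the 97 genes at 1000 TPM or over.

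The genes used to mark the tagged cells were all present. Apoe, the main lipid carrier of astrocytes, stood at 15591, 10677 and 14065 TPM and ranked 3 among protein-coding genes by its mean. Hopx, a homeodomain protein of quiescent stem cells, stood at 1125, 885 and 1129 TPM. The glutamate transporters Slc1a3 and Slc1a2 stood at 924, 864 and 1105 TPM and at 357, 301 and 326 TPM. These 4 genes varied by less than 1.5-fold between the highest and the lowest sample. Sox2, the stem cell and glial transcription factor, stood at 248, 202 and 252 TPM. Prox1, the transcription factor of granule neurons and their precursors, was the lowest of the set at 66.5, 144 and 116 TPM and was the only 1 of the 6 that differed by more than 2-fold, with replicate 2 the highest. On the TPM scale, Slc1a3 exceeded Prox1 by 13.9, 6.02 and 9.52 times in the 3 samples.

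Secreted and glial mRNAs led the ribosome-bound pool. Ptgds, the prostaglandin D synthase that glia, meninges and choroid plexus secrete, was the highest protein-coding gene in every sample at 21593, 16605 and 24922 TPM. Cst3, the protease inhibitor cystatin C, followed at 17890.0, 12882 and 12343 TPM, and its order with Apoe changed between samples. Ptgds, Cst3 and Apoe lay above the next gene, the brain creatine kinase Ckb, at 8206, 6659 and 7419 TPM. The 10 highest protein-coding genes of a sample held 10.1%, 7.91% and 9.1% of its TPM, and the 100 highest held 25.9%, 22.9% and 22.3%.

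Genes 4 to 10 by mean TPM were Ckb, Bcar1, Tmsb4x, Cpe, Dbi, Fth1 and Mt1, and their ranges overlapped along the order. Cpe, the carboxypeptidase E that trims prohormones, was among the steadiest at 5579, 5400.3 and 6192 TPM. Itm2b, a membrane protein processed by furin, was steadier still at 3442, 3651 and 3417 TPM. Other genes of this group varied more. Tmsb4x, which binds actin monomers, was at 6447, 7837 and 3110.4 TPM, and Dbi, the acyl-CoA binding protein, was at 6345, 4239.6 and 2971 TPM. Replicate 3 was the lowest in both. Bcar1, an adaptor of focal adhesions, was at 7874, 4389 and 8437 TPM, with replicate 2 the lowest and replicates 1 and 3 close together.

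**Figure D1:**
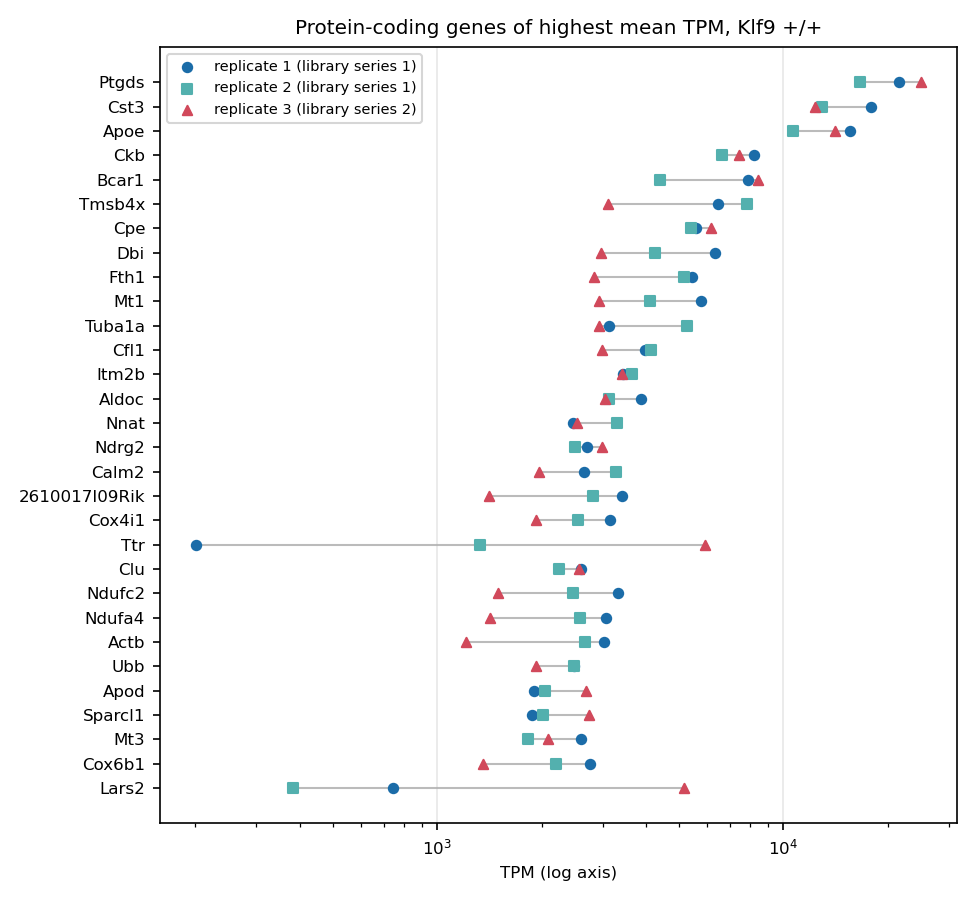
Level of the 30 protein-coding genes with the highest mean TPM (log axis) in each Klf9 +/+ sample, with a grey line from the lowest to the highest sample. Ptgds, Cst3 and Apoe lie above every other gene in all 3 samples, and Ttr and Lars2 are spread the most, with replicate 3 the highest.

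The rest of the 30 highest fell into a few kinds. Astrocyte enzymes and regulators were represented by Aldoc, the brain aldolase, at 3867, 3131 and 3049 TPM and by Ndrg2 at 2698, 2497 and 2996 TPM. Secreted glial proteins were represented by Clu at 2595, 2243 and 2573 TPM, Apod at 1908, 2040.1 and 2693 TPM and Sparcl1 at 1882, 2022 and 2736 TPM. Clusterin and apolipoprotein D carry lipids, and SPARC-like 1 is released by astrocytes and acts on synapses. Tubulin, actin and cofilin genes and subunits of the respiratory chain were also among the 30. Tuba1a, a tubulin of growing neurons, was at 3133, 5273 and 2937 TPM and highest in replicate 2. The short respiratory chain genes Cox4i1, Ndufc2, Ndufa4 and Cox6b1 were lowest in replicate 3, Ndufa4 for example at 3077, 2585 and 1422 TPM. Ranks changed with the sample for 2 genes in particular. Ttr, the transthyretin of choroid plexus, was at 201, 1329 and 5925 TPM and ranked 924, 59 and 7. Lars2, the mitochondrial leucyl-tRNA synthetase, was at 746, 384 and 5162 TPM and ranked 169, 443 and 8. All 37 mitochondrially encoded genes were listed at 0, and whether reads of other origin were counted on Lars2 was not tested. Per-sample lists of the 30 highest genes shared 26 genes between replicates 1 and 2, 21 between replicates 1 and 3, and 22 between replicates 2 and 3.

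Metallothioneins, small cysteine-rich proteins that bind zinc and copper, formed a neighbouring trio near the top. Mt1 was at 5766, 4127 and 2938 TPM, Mt3 at 2592, 1829.9 and 2086 TPM and Mt2 at 2602, 1865 and 1226 TPM, which made them 10, 28 and 36 in the order of protein-coding genes. Their sum was 10960.0, 7822 and 6250.0 TPM, or 1.1, 0.782 and 0.625% of all TPM. Replicate 1 was the highest for all 3, against 14.5% of all genes. Merged exons of Mt1, Mt2 and Mt3 were 753, 556 and 538 bp long. On the log2 CPM scale, protein-coding genes under 600 bp had a median of -0.46 for replicate 2 against replicate 1. For replicate 3 against replicates 1 and 2 their median was -1.22, so this order is not particular to metallothioneins. Mt1 and Mt2 are induced by metals and glucocorticoids in most tissues, and Mt3 is largely a brain gene. Their promoters are shown because the 3 genes lie next to each other on chromosome 8 and are all among the highest. Each is 250 bases before to 50 bases after the RefSeq start, taken from the GRCm38.p6 table and matched exactly, once each, to the plus strand of mm9 chromosome 8 at chr8:96702739-96703038 for Mt1, chr8:96696268-96696567 for Mt2 and chr8:96676257-96676556 for Mt3. Capitals mark TGCGCNC or TGCACNC on either strand, the core letters of the metal response element.
Mt1: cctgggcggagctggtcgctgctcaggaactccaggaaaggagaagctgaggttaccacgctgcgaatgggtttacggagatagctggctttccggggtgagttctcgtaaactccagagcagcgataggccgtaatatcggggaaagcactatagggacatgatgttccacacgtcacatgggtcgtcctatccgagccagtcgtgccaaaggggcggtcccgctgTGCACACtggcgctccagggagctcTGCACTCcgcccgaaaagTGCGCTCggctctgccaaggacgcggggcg
Mt2: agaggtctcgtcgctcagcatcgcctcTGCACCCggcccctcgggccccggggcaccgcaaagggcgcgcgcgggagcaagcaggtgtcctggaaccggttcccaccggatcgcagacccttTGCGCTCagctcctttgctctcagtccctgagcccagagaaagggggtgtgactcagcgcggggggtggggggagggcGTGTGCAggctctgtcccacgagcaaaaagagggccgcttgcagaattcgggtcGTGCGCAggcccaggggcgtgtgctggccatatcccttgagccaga
Mt3: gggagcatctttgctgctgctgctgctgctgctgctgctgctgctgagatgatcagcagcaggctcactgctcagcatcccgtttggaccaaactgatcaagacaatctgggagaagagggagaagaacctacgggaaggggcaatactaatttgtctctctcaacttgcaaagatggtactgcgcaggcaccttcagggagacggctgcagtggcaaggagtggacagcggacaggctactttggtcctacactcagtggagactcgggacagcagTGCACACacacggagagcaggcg
The marked matches do not overlap each other. The letters occurred 3 times in the window of Mt1, 4 times in that of Mt2 and once in that of Mt3. Match positions were counted in bases before the RefSeq start, with negative values after it. They were 23, -2 and -20 in Mt1, 223, 128, 50 and -4 in Mt2, and -27 in Mt3. At least 1 occurrence was found in 25.7% of 32851 promoter windows of this length, and at least 3 in 1.97%. The counts describe the letters in these windows and say nothing of binding by a factor.

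All 20 astrocyte markers listed were above 1 CPM in the 3 samples. Their summed level was 12720.0, 11021 and 13032 TPM, a mean of 12258 ± 1082 (SD, n = 3). Over all samples 15 of the 20 agreed within 2-fold, where 70.4% of protein-coding genes did. Agreement rises with level, and the median of the list was 337 TPM. Of protein-coding genes from 100 to 1000 TPM, 90.5% agreed within 2-fold, so these markers did not agree better than genes of like level. After Aldoc and Ndrg2 the highest were Mlc1, a membrane protein of astrocyte endfeet, at 1082, 922 and 1114 TPM and the glutamate transporter Slc1a3. Glul, the glutamine synthetase, was at 895, 526 and 531 TPM, highest in replicate 1. Gja1, the gap junction protein connexin 43, was at 329, 439.8 and 699.5 TPM, highest in replicate 3. The markers S100b at 107, 74.2 and 105 TPM and Aldh1l1 at 31.2, 25.9 and 57.2 TPM were low beside these. Aqp4, the water channel of endfeet, was at 109, 74.4 and 165 TPM.

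Transmitter and ion handling, the main housekeeping work of astrocytes, was represented in full. All 16 genes listed for glutamate, GABA and glycine handling were above 1 CPM, with a summed level of 3484, 2922 and 3552 TPM. Slc6a11, a GABA transporter of astrocytes, was at 89, 54.3 and 104 TPM, lowest in replicate 2. Slc25a18, a mitochondrial glutamate carrier, was at 478, 426 and 388 TPM, highest in replicate 1. All 17 genes listed for potassium, water and gap junctions were also above 1 CPM. Atp1b2, a glial sodium pump subunit, was at 210.3, 190.3 and 583 TPM, highest in replicate 3. Kcnj10, the glial potassium channel Kir4.1, was at 80.5, 57.9 and 44.4 TPM, lowest in replicate 3, and Gjb2, connexin 26, was at 25.6, 22.5 and 102 TPM, highest in replicate 3.

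All 18 RGL markers were above 1 CPM, with a summed level of 5266, 4315 and 5737 TPM, a mean of 5106 ± 724 (SD, n = 3). Gfap, the intermediate filament of astrocytes and RGLs, was at 1177, 1094 and 2342 TPM, and Fabp7, a fatty acid binding protein of radial glia, was at 1441, 1108 and 591 TPM. Replicate 3 was the highest for Gfap and the lowest for Fabp7. Vim, vimentin, was at 626, 444 and 587 TPM. Lower down came the Notch modifier Lfng at 53.6, 73.2 and 163 TPM. Nes, nestin, a classical marker of RGLs, was only at 24.4, 16.7 and 19.3 TPM. Gli1, the gene that drives the Cre, was the lowest of the list at 2.38, 1.91 and 5.6 TPM.

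Genes of dividing cells formed the only cell type list in which every member stayed within 2-fold. All 15 were above 1 CPM and lay within 2-fold over the 3 samples, with a summed level of 1913, 2063 and 2045 TPM. Rrm2, the S-phase subunit of ribonucleotide reductase, was the highest at 325, 387 and 397 TPM. Pcna, the sliding clamp of DNA replication, was at 319, 311 and 221 TPM. The mitotic kinases Cdk1 and Aurkb were at 190.5, 164 and 119 TPM and 129, 128 and 131 TPM. Of the replication helicase genes, Mcm3 was the lowest at 104, 106 and 142 TPM and Mcm6 the highest at 163, 193 and 222 TPM. Mki67, the antigen often stained to count dividing cells, was at 17.5, 15.6 and 20.5 TPM, with a range that overlapped that of Bub1 at 14.6, 21.2 and 29.2 TPM.

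**Figure D2:**
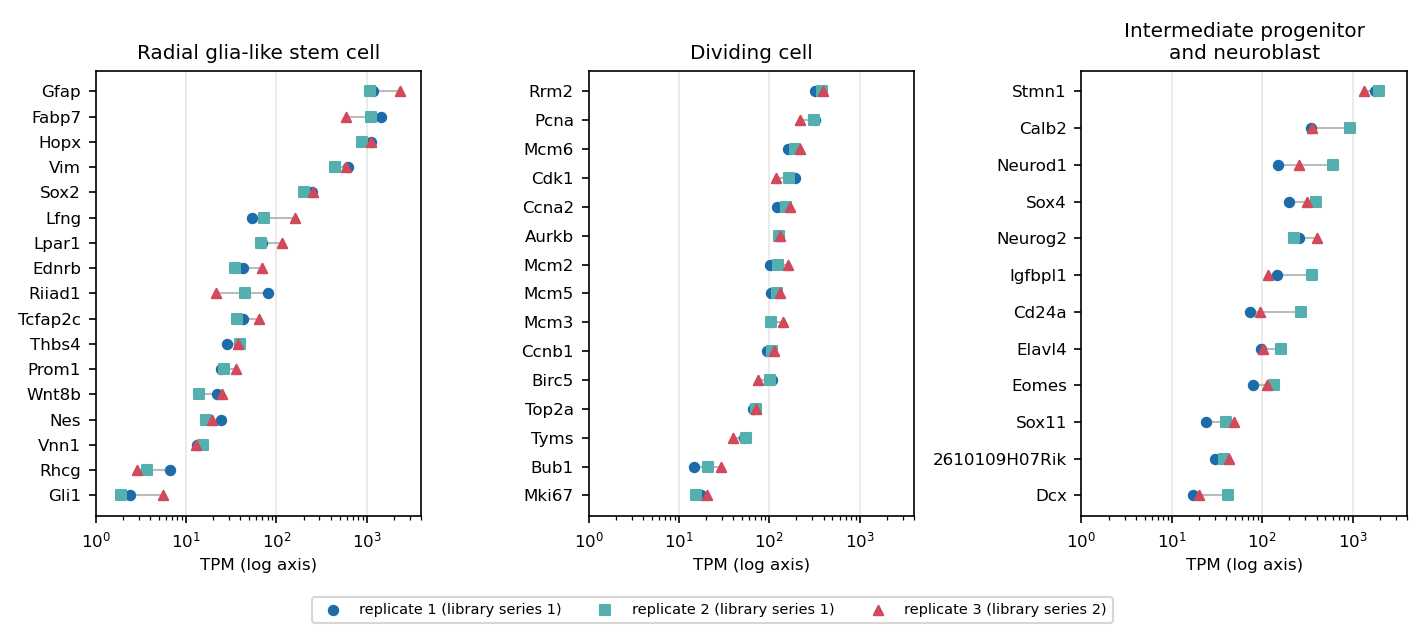
Level in TPM (log axis) of listed genes of RGLs, dividing cells, and intermediate progenitors and neuroblasts in the 3 Klf9 +/+ samples, with a grey line from the lowest to the highest sample. Points of the dividing cell genes lie close together, and replicate 2 lies to the right for Calb2, Neurod1, Igfbpl1, Cd24a and Dcx.

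Intermediate progenitor and neuroblast mRNAs were also carried by tagged ribosomes, and they set replicate 2 apart. All 12 listed genes were above 1 CPM, with a summed level of 3211, 5158 and 3195 TPM. Replicate 2 was the highest for 9 of the 12, where it was the highest for 17.3% of all genes. Neurod1, the bHLH factor of newborn granule neurons, was at 150.4, 604 and 255 TPM. Calb2, the calretinin of immature neurons, was at 350.1, 933 and 359 TPM, and Cd24a, a surface protein of neuroblasts, was at 73.7, 271 and 93.5 TPM. Dcx, the microtubule protein doublecortin, was at 17.2, 42.2 and 19.9 TPM. With Igfbpl1, 5 of the 12 were more than 2-fold higher in replicate 2 than in replicate 1 on the log2 CPM scale, and 0 were more than 2-fold lower. Over all 13463 genes, 1.25% were more than 2-fold higher in replicate 2 and 1.5% were more than 2-fold lower. The 2 replicates share a library series, and with 1 pool on each side the difference has no replicate check.

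Earlier and later steps did not all follow the same order of samples. Neurog2, a proneural factor of intermediate progenitors, was at 255, 227 and 406 TPM, highest in replicate 3. Eomes, or Tbr2, the marker of intermediate progenitors, was at 78.8, 135 and 112 TPM, and Sox11, a factor of immature neurons, was at 23.7, 39.8 and 49.1 TPM. Stmn1, a tubulin-binding protein of proliferating cells and young neurons, was the highest of the list at 1788, 1958 and 1326 TPM. Among genes of any neuron, Tubb3 at 176, 501 and 214 TPM and Stmn2 at 99.8, 263 and 78.1 TPM were highest in replicate 2. The synaptic genes Snap25 at 110.4, 131 and 116 TPM and Syt1 at 36.5, 39.4 and 49.9 TPM varied by less than 1.5-fold.

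Markers of mature granule neurons were low beside those of astrocytes. The 11 granule neuron genes summed to 367, 459 and 550.1 TPM, against 12720.0, 11021 and 13032 TPM for the 20 astrocyte genes. Sums depend on which genes a list holds. The median of the mean TPM was 28.0 for the granule neuron list and 337 for the astrocyte list. It was 20.1 for all genes above 1 CPM, so the granule neuron list was not low beside these. The highest was the complement-like C1ql2 at 104, 114 and 180.4 TPM, followed by Prox1 and by the bHLH factor Neurod2 at 47.6, 72.2 and 73.9 TPM. Calb1, the calbindin of mature granule neurons, was at 43.9, 33.5 and 28.3 TPM. Nrgn, the calmodulin-binding neurogranin of forebrain excitatory neurons, was the highest neuronal gene at 803, 648 and 598 TPM. Slc17a7, also listed among genes of any neuron, was at 191, 171 and 237 TPM. Interneuron genes summed to 145, 119 and 96.7 TPM, and Slc32a1, the vesicular GABA transporter, was at 0.34, 0.536 and 2 TPM. The part of mRNA carried over without a tag in these neuronal values was not tested.

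Other glia and immune cells were low. The 8 genes of oligodendrocyte progenitors summed to 95.9, 81.4 and 144 TPM, with the transcription factor Olig2 at 5.14, 4.09 and 6.52 TPM. The 11 genes of oligodendrocytes summed to 255, 347 and 459 TPM. Mbp, the myelin basic protein, was at 42, 101 and 153 TPM, lowest in replicate 1. The 11 microglial genes summed to 203, 196 and 302 TPM, and their receptor Cx3cr1 was at 5.6, 4.29 and 7.63 TPM. All 5 blood genes were above 1 CPM, with the haemoglobin gene Hbb-b1 at 192, 156 and 165 TPM, and 4 of the 5 agreed within 2-fold over all samples.

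Most vascular genes were lower in replicate 2, where neuroblast genes were higher. The 12 endothelial genes summed to 1199.6, 544 and 809.6 TPM, and 9 of the 12 were more than 2-fold lower in replicate 2 than in replicate 1 on the log2 CPM scale, where 1.5% of all genes were. Cldn5, the tight junction protein of brain endothelium, was at 82.2, 30.9 and 68.1 TPM, and Ly6c1 was at 354, 128 and 121 TPM. Among the 10 mural genes, 5 were more than 2-fold lower in replicate 2. Acta2, the actin of smooth muscle, was at 358, 45.5 and 198 TPM, the widest gap of the list between those replicates, while Vtn, vitronectin, which pericytes express, was at 447, 547 and 1115 TPM. The part of vascular content in the neuroblast difference was not tested.

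**Figure D3:**
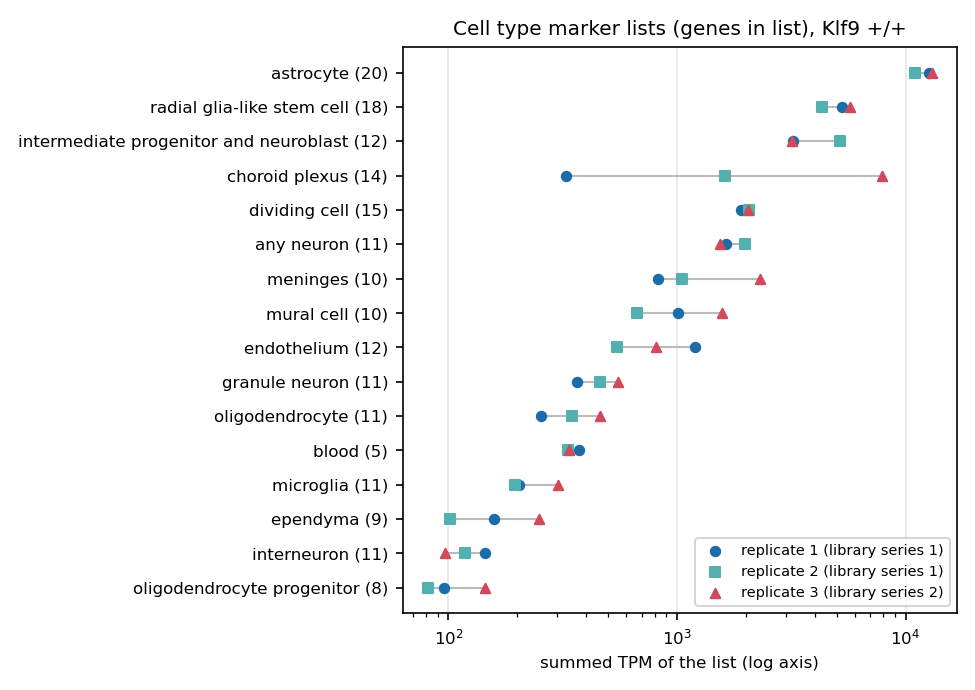
Summed TPM (log axis) of each cell type marker list in each Klf9 +/+ sample, with the number of genes in brackets and a grey line from the lowest to the highest sample. The astrocyte list is the highest in all 3 samples, and the choroid plexus list is spread the most, from 328 to 7854 TPM.

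Genes of the choroid plexus, a tissue near the dissected region, differed most between the samples of all the cell type lists. Of 14 choroid plexus genes 7 were above 1 CPM in all samples. All 14 were highest in replicate 3, where 68.2% of all genes were, and their sum was 328, 1617 and 7854 TPM, which was 0.785% of all TPM in replicate 3. Beside Ttr, Enpp2, which makes lysophosphatidic acid, was at 81.9, 198 and 1315 TPM. Folr1, a folate receptor, was at 0.514, 5.41 and 65.3 TPM and Otx2, the transcription factor that defines this epithelium, was at 0.468, 1.22 and 10.9 TPM, so replicate 1 held next to none of either. The 10 meningeal genes were also highest in replicate 3, as were all 8 genes of oligodendrocyte progenitors, so this order alone is not particular to either list. Meningeal genes had sums of 828, 1053 and 2302 TPM, with the matrix protein Dcn at 384, 505 and 1006 TPM. The choroid plexus list held 0.033, 0.162 and 0.785% of all TPM. Leaving it out of the total therefore could not change another list by more than the spread of its samples, and is no check on these tissues. The choroid plexus and meningeal values move with the second library series, and their part in its other differences was not tested.

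Regulators that hold progenitors back from differentiation were among the highest transcription factors. Of 392 factors matched, 338 were above 1 CPM in all samples and 29 were above 100 TPM in all, and together they held 1.39, 1.65 and 1.96% of TPM. The 4 inhibitors of DNA binding, which block bHLH factors, were all prominent. Id2 was at 841, 1610.2 and 759 TPM, highest in replicate 2. Id4, which holds adult stem cells in quiescence, was at 618, 686 and 998 TPM, Id3 at 435, 362 and 498 TPM and Id1 at 286, 215 and 220.0 TPM. The Notch effectors differed in level, with Hes5 at 198, 173 and 277 TPM and Hes1 at 39.7, 30.9 and 35.6 TPM, and Hes6, which opposes Hes1, stood above both at 469, 406 and 450.4 TPM. Hes3 and Hes7 stayed under 1.5 TPM.

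Factors of forebrain patterning and gliogenesis came next. Lhx2, a LIM homeodomain factor of the hippocampal primordium, was at 377, 518 and 614 TPM. Nfix was at 399, 582 and 561 TPM, the highest of the 4 nuclear factor I genes, of which 3 were highest in replicate 2. Sox9, which specifies astrocytes, was at 309, 299.8 and 452 TPM, and Tcf4, an E protein that pairs with proneural factors, was at 316, 446 and 331 TPM. Emx1 and Emx2, dorsal forebrain factors, were at 119, 129 and 187 TPM and 78.2, 121 and 109.5 TPM. Nr2e1, or Tlx, a nuclear receptor of neural stem cells, was at 41.2, 38 and 75.5 TPM.

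Some factors differed much between samples. Insm1, a zinc finger factor of progenitors, was at 103, 134 and 349 TPM, highest in replicate 3. Zfp238, also called Zbtb18, was at 134, 287 and 264 TPM, lowest in replicate 1. Foxc1 at 14.8, 17.2 and 50.7 TPM and Foxd1 at 12.3, 9.66 and 47 TPM were highest in replicate 3, as were 82.7% of all the transcription factors listed. Of the 338 factors above 1 CPM, 191 agreed within 2-fold over all samples, a lower share than the 70.4% of protein-coding genes. The factors matched had a median of 10.9 TPM, and of protein-coding genes from 5 to 20 TPM 61.7% agreed within 2-fold. The part of level in the share of the factors was not tested.

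Klf9, the zinc finger factor that was left intact in these mice, was at 138, 155 and 135 TPM, a mean of 143 ± 10.3 (SD, n = 3), and was the highest of 20 KLF and SP genes. Klf3 at 97.5, 111 and 112 TPM and Klf15 at 66.5, 73.9 and 115 TPM followed, and the ranges of Klf9 and Klf3 did not overlap. Other genes that restrain the cell cycle were all above 1 CPM, 14 of 14 with Klf9 included. The Cdk inhibitors Cdkn2c and Cdkn1b were at 105, 131 and 120.4 TPM and 13.2, 33.9 and 40.5 TPM. Cdkn1c, or p57, was at 46.4, 45.1 and 141 TPM, highest in replicate 3. Foxo3, a forkhead factor of stem cell quiescence, was the lowest of the 14 at 6.99, 9.72 and 8.49 TPM.

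Receptor mRNAs were fewer and lower. Of 379 receptors, 277 were above 1 CPM in all samples, and only 8 were above 100 TPM in all. A pair of G protein-coupled receptors of astrocytes stood apart from the rest. Ntsr2, a neurotensin receptor, was at 1069.5, 908 and 958 TPM, and Gpr37l1, a receptor linked to prosaposin, was at 846, 674 and 938 TPM. Their lowest samples lay above the highest sample of every other receptor listed. Gpr56, an adhesion receptor, was at 209, 255 and 358 TPM, and S1pr1, a receptor of sphingosine-1-phosphate, was at 219, 218 and 354 TPM.

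Receptor tyrosine kinases were led by the collagen receptor Ddr1 at 116, 114 and 217 TPM and by Ntrk2, the BDNF receptor TrkB, at 143, 134 and 168 TPM. Counts per gene do not tell the kinase form of TrkB from the truncated form that glia make. Fgfr3 was the highest FGF receptor at 57.2, 52.7 and 116 TPM, ahead of Fgfr1 at 37.6, 44.5 and 101 TPM. Egfr, the EGF receptor of activated stem cells, was at 8.12, 7.89 and 9.23 TPM, and Erbb3, Ret and Met were under 1 TPM in all samples. Gas1, a co-receptor of Sonic hedgehog, was at 135, 108 and 181 TPM, well above the signal transducer Smo at 20.2, 21.9 and 53.6 TPM and the receptor Ptch1 at 7.84, 7.08 and 13.1 TPM. Notch1 and Notch2 were at 15.5, 12.1 and 17.3 TPM and 18.4, 8.8 and 15.1 TPM. For BMP the type I receptor Bmpr1a was at 24.9, 26.5 and 46.5 TPM, and for Wnt the highest were Fzd1 at 35.9, 36.9 and 88.4 TPM and Fzd2 at 37.9, 35.1 and 66.4 TPM, while Lgr5 stayed under 0.05 TPM.

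The highest ionotropic receptor genes coded for GABA-A and AMPA receptor subunits. Gabrb1 was at 127, 114 and 112 TPM, Gria2 at 98.1, 105 and 146 TPM and Gria1 at 90.5, 77.6 and 122 TPM. Grm3 was the highest metabotropic glutamate receptor at 43.8, 35.9 and 66.5 TPM, and Grm5 was at 8.46, 8 and 12.5 TPM. Of 34 monoamine and acetylcholine receptors, 13 were above 1 CPM. Sstr2, a somatostatin receptor, was at 47.9, 148 and 71.1 TPM and was highest in replicate 2, as 9 of the 12 progenitor and neuroblast genes were. Cntfr, the receptor of ciliary neurotrophic factor, was at 16.2, 56.3 and 118 TPM, the widest spread among the 25 highest receptors.

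**Figure D4:**
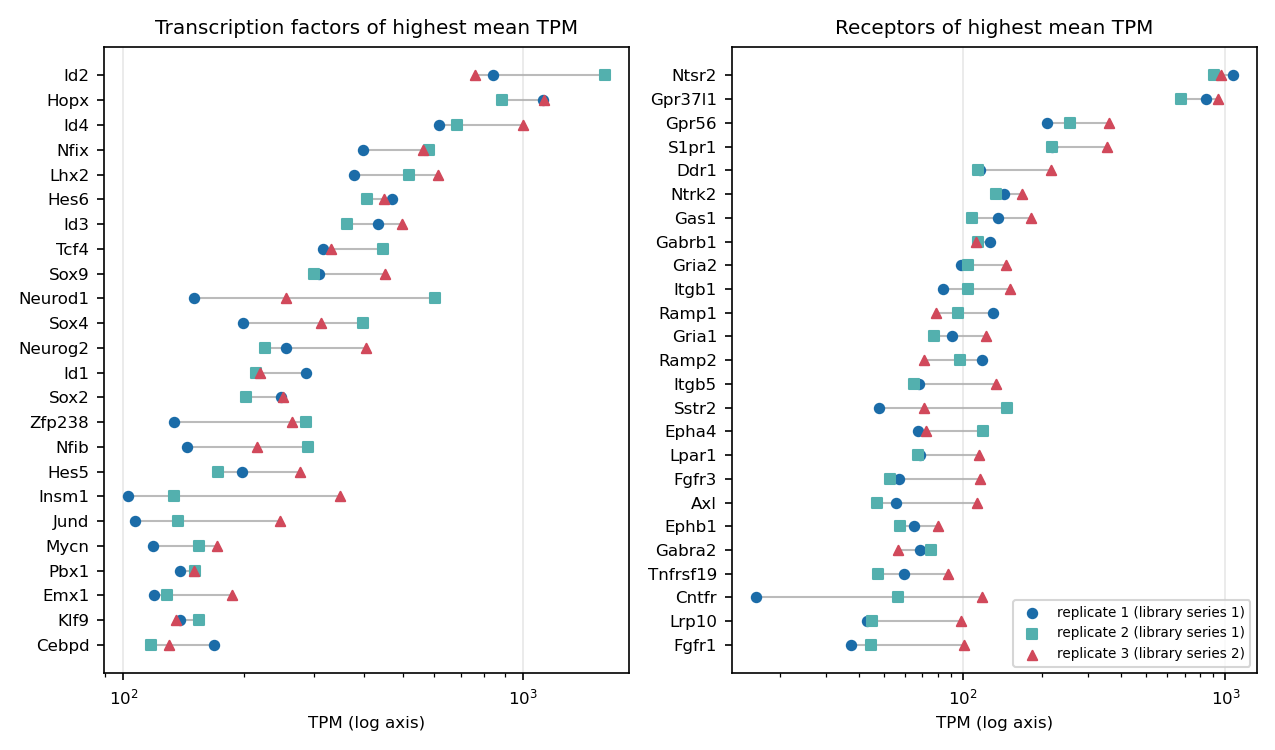
Transcription factors (left) and receptors (right) among the 25 of each kind with the highest mean TPM (log axes), one point per Klf9 +/+ sample, with a grey line from the lowest to the highest. Ntsr2 and Gpr37l1 lie apart from the other receptors in all 3 samples, and Neurod1 and Cntfr are spread widely.

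Secreted ligands held 8.03, 6.48 and 8.6% of TPM, most of it in Ptgds, Cst3 and Apoe. Among growth factors, Mdk, the heparin-binding midkine, was at 1189, 1189 and 941 TPM and its relative Ptn, pleiotrophin, at 434, 287 and 319 TPM. Igf2, a growth factor also made by the meninges, came next at 55.9, 103 and 198 TPM, highest in replicate 3, and Vegfb followed at 106, 97.8 and 102 TPM. Fgf2 stayed under 0.6 TPM, and Shh was listed at 0 in replicates 1 and 2 and at 0.231 TPM in replicate 3. Among Wnt genes the antagonists led, with Dkk3 at 194, 185 and 278 TPM and Frzb at 116, 98.6 and 119 TPM, and the highest Wnt was Wnt7b at 49.2, 50.2 and 121 TPM. Dll3 and Dll1, ligands of the Notch family, were at 26.6, 45.7 and 38.1 TPM and 18.2, 15.2 and 30.7 TPM. Nbl1, a secreted BMP antagonist, was at 196, 178 and 353 TPM, and Bmp6 was at 13.8, 25.5 and 74.5 TPM, highest in replicate 3. Sparc, a matrix protein, was at 2595, 1936 and 1650.1 TPM, and the proteoglycans Cspg5 and Bcan were at 323, 279 and 454 TPM and 212, 228 and 412 TPM.

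Little of the counts fell on noncoding genes. Protein-coding genes took 98.4%, 98.7% and 99.0% of counts. Malat1, a long RNA retained in the nucleus, was nevertheless at 2938, 1809.7 and 1588 TPM, and Meg3 was at 21.6, 19.8 and 62.8 TPM. All 37 mitochondrially encoded genes were listed at 0 in the 3 samples.

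Within this genotype, replicate 3 was set against replicates 1 and 2 to find which levels agreed between the library series. Of 13463 genes tested with edgeR's quasi-likelihood test, 758 (5.63%) were higher and 950 (7.06%) lower in the second series at a Benjamini-Hochberg adjusted p under 0.05. Scaled by library size alone, the split was 1084 higher and 285 lower, and the median log2 difference of all genes was 0.24 instead of 0.04. The test had 1 residual degree of freedom. In a fit of all 6 samples of the series, 133 were higher and 77 lower, and all 210 were among the 1708. The second series held 1 library of each genotype. The spread of that fit, called the shared spread below, therefore came from the first series only. Between the series 10.6% of genes differed by more than 2-fold (5.53% higher and 5.08% lower), and between replicates 1 and 2 this was 2.75%. Of the reads handled in counting, 7.66%, 6.37% and 12.2% fell on no gene in replicates 1, 2 and 3. Reads on several genes made up 2.52%, 2.61% and 1.38%, and reads at several positions 8.95%, 8.81% and 12.99%. Replicate 3 was thus the highest for reads on no gene and at several positions, and the lowest for reads on several genes. The part of these shares in the difference was not tested.

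The difference followed gene length. On the log2 CPM scale the median difference of replicate 3 from replicates 1 and 2 was -1.22 for 85 protein-coding genes with under 600 bp of merged exons and -0.92 for 335 genes from 600 to 1000 bp. It was -0.51 from 1000 to 2000 bp, close to 0 from 2000 to 4000 bp and 0.26 from 4000 to 8000 bp. Of the genes under 600 bp, 71.8% were called lower and 0 higher. Between replicates 1 and 2 the medians of the same classes ran from -0.46 to 0.06. By GC content of the longest transcript the medians of the series difference ran from -0.01 under 40% to 0.30 at 60% and over. A trend in length and GC, fitted after the data had been seen, took up 28.3% of the variance of the difference, and with it removed, the protein-coding genes over 2-fold apart numbered 754 instead of 1281. For the metallothioneins, with a median length of 556 bp, the median log2 difference of -1.15 became -0.06.

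**Figure D5:**
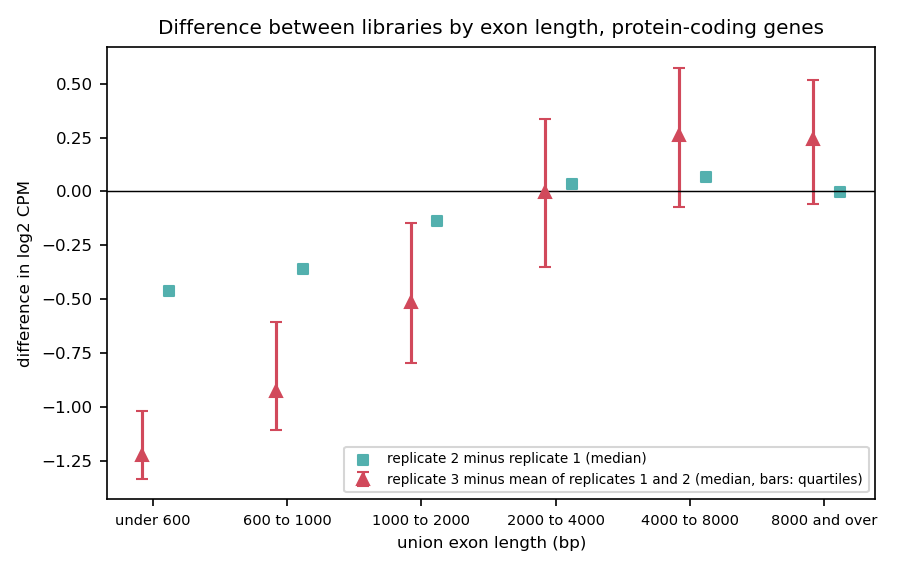
Median difference in log2 CPM by class of merged exon length, over protein-coding genes above 1 CPM in all 3 Klf9 +/+ samples, for replicate 3 against the mean of replicates 1 and 2 (triangles, bars from the lower to the upper quartile) and for replicate 2 against replicate 1 (squares). The triangles go from -1.22 under 600 bp to 0.24 at 8000 bp and over, and the squares stay between -0.46 and 0.06.

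List by list, the share of genes called varied around that of all genes. Of the 20 astrocyte genes 0 were called between the series, where 12.7% of all genes were, and their median log2 difference was -0.12, against 0.04 for all genes. With scaling to library size alone every log2 difference moves up by about the same amount, so the sign of a median this close to 0 depends on the scaling. Of the 18 RGL genes 1 was called higher, Lfng, and 2 lower, Fabp7 and Riiad1. With the shared spread, 0 of these 18 were called higher and 2 lower. Of the 15 dividing cell genes 4 were called lower, and of the 12 intermediate progenitor and neuroblast genes 2 were. With the shared spread 0 of either list were. All 7 choroid plexus genes tested were called higher, with a median of 3.10, and 8 of 10 meningeal genes, with a median of 0.96. With that shared spread, 6 of the 7 choroid plexus genes and 0 of the 10 meningeal genes were called. Of the 277 receptors tested 44 were called higher and 3 lower, and of the 338 transcription factors tested 37 were called higher and 3 lower. With the shared spread these became 8 higher and 0 lower for receptors and 11 higher and 0 lower for transcription factors. Of all genes 5.63% were called higher and 7.06% lower without the shared spread. Median merged exon lengths were 5109 bp for these receptors and 4631 bp for these factors, against 3754 bp for all genes. From 4000 to 8000 bp, 8.16% of protein-coding genes were called higher and 1.75% lower. The part of length in the calls of these lists was not tested.

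Genes with the smallest p for a higher level in the second series were Gnas, Tpm3-rs7, Col8a2, Ace, Col8a1, Kl, Clic6, Trf, Zfp185 and Sulf1. Gnas, the stimulatory G protein subunit, was at 32.7, 36.3 and 403 CPM after TMM scaling, a log2 difference of 3.55, SE 0.25, adjusted p = 1.01e-08. It lies on mm9 chromosome 2 from 174109821 to 174172245, where several overlapping transcripts share exons. Kl, the klotho gene of choroid plexus, was at 3.23, 7.95 and 73.1 CPM (3.70, SE 0.36, adjusted p = 1e-06). Trf, transferrin, was at 10.8, 13.4 and 73.8 CPM (2.61, SE 0.27, adjusted p = 2.78e-06). In these sentences the bracketed values are the log2 difference, its standard error and the Benjamini-Hochberg adjusted p of edgeR's quasi-likelihood test, whose spread came from replicates 1 and 2 only. With the shared spread, the adjusted p of the same edgeR test was 9.21e-05 for Gnas, 0.0152 for Kl and 0.00374 for Trf.

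Genes with the smallest p for a lower level were 2 annotated miRNA loci, AC113316.1 and AC115697.1, then Hmgn2-ps1, Gm8730, Gm11223, Eea1, Gm2000, Gm9625, Gm6724 and Gm7125. Several are annotated pseudogenes or short predicted genes, whose reads may be shared with near-identical copies, so their counts are uncertain. Eea1, a tether of early endosomes, was at 239, 295 and 53.8 CPM after TMM scaling, and edgeR's quasi-likelihood test gave a log2 difference of -2.31, SE 0.30, adjusted p = 5.27e-05. AC113316.1 was at 119, 126 and 3.46 CPM, with a log2 difference of -5.14, SE 0.35, adjusted p = 5.98e-09 in the same test. With the shared spread, the adjusted p of the edgeR test was 0.0101 for Eea1 and 9.21e-05 for AC113316.1.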

How the data were processed

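The authors isolated RNA bound to HA-tagged ribosomes, made cDNA libraries with a SMARTer v4 kit and sequenced them. Reads were aligned with STAR to mm9 and counted per gene with HTSeq without strand, so overlapping and antisense genes cannot be told apart. The deposited values are whole-number counts per gene, and the 5 summary lines of HTSeq were set aside. The 3 Klf9 +/+ samples were used, and no comparison with Klf9 f/f was made, whose samples only lent their spread to the alternatives that share it. Reads on no gene made up 6.37 to 12.2% of the reads HTSeq handled, and reads on several genes or positions also took part in no value.

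TPM used the merged exon length of the GENCODE annotation of mm9, which overstates the length of a gene whose short transcript is the one expressed. Genes above 1 CPM in all 3 samples were kept. The library series was tested with edgeR 4.0.16 (TMM, quasi-likelihood, Benjamini-Hochberg) in R 4.3.3, with DESeq2 1.42.0 as an alternative, and the scripts were tested on simulated data with 200 changed genes. Standard errors were the log2 difference over the square root of F. Counting error is small at this depth, and the samples are pools, so p-values measure the spread between pools only. The members and gene lists were chosen with earlier results of these data known. Some listed genes count in sums and totals but are not reported here by name. Of 1136 listed symbols 1133 matched. Genes were named as the 30 highest, as list members by level with the low members of interest, and as the 10 smallest p in each direction. Alternatives covered scaling, filters, length, tool, spread and left-out samples.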

Additional observations from a re-analysis of the deposited data

How the results depend on the processing

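The number of genes called between the library series was the least stable result. It was 1708, and became 2640 with no filter beyond 1 count, 210 with the spread shared over all 6 samples, and 124 to 1121 when a replicate was left out (124 without replicate 1, 1121 without replicate 2). A left-out replicate leaves 1 library in each series, so these fits took the spread from the Klf9 f/f samples and assume that the lone libraries vary like those. They stand beside the 210, and do not show stability. Genes called higher in the second series numbered 758, and 1152 with no filter, 429 with DESeq2, 133 with the shared spread and 82 to 332 with a replicate left out. Genes called lower numbered 950, and 285 with scaling to library size only, 1488 with no filter, 77 with the shared spread and 42 to 789 with a replicate left out. Of the genes over 2-fold apart, 745 higher and 684 lower became 1245 and 283 with scaling to library size only. A trend in length and GC content, removed as an alternative chosen after seeing the data, left 754 protein-coding genes over 2-fold apart instead of 1281. With the longest transcript as length, the summed mean TPM of the 6 study markers was 19131 instead of 16126 (SD 2725). That of dividing cell genes was 2131 instead of 2007 (SD 81.8), a small change beside a small spread. Ranked by CPM, not per length, 18 of the 30 highest genes were shared. For all these changes the cause was not tested. Of the values recomputed under an alternative, 120 moved by less than their spread or 1.5-fold. For the list sums with a sample left out this is no check. Leaving out 1 of 3 samples cannot move a mean by as much as their SD. The mean choroid plexus sum went from 3266.5 to 972.8 TPM without replicate 3 and is among the 120. Leaving choroid plexus genes out of the total could not move another list that far either. No paired analysis was made because only 1 group was used. With 1 pool in the second series and 3 in all, no difference between the series can be separated from that of 1 library.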
